A study of Mus musculus with 6 samples.

Results

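Amino acid transporter genes were followed in islets of mice mutant for Nkx6-1, a homeodomain transcription factor of beta cells. The genes were all non-control probes of the array whose gene name began with Slc1a, Slc3a, Slc6a, Slc7a, Slc36a, Slc38a or Slc43a and a number. This took in 77 of 39429 probes and 62 of 31829 gene names, in 7 families. Of these names, 61 are carriers or their heavy chains, and Slc7a6os is no transporter but a neighbour of Slc7a6 that shares its name. Signal was high enough to test 45 of the 62 names, out of 22775 tested on the whole array.

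Amino acids cross the plasma membrane on carriers with overlapping substrates. The Slc1 family takes up glutamate and aspartate with sodium and also holds exchangers of small neutral amino acids. The Slc38 family takes up glutamine, alanine and other small neutral amino acids with sodium. Its system A members include Slc38a2, known to be raised when amino acids are scarce, and its system N members carry glutamine, histidine and asparagine. Light chains of the Slc7 family work as pairs with the heavy chains Slc3a1 or Slc3a2 and exchange large neutral or cationic amino acids. The Slc6 family carries GABA, glycine, taurine, creatine, proline and neutral amino acids with sodium and chloride, and its monoamine carriers are no amino acid transporters. In beta cells, leucine and arginine are known to raise insulin secretion, arginine in part because its positive charge depolarises the cell on entry.

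The mutants were Nkx6.1fl/-;Pdx1-CreERTM and the controls Nkx6.1fl/+;Pdx1-CreERTM, all male, 6 weeks old and of mixed FVB/N, C57Bl/6J and Cd1 background. Pdx1-CreERTM is a recombinase that tamoxifen activates, driven by a promoter active in beta cells and some other pancreatic cells. Both groups carried it, and both received tamoxifen at 2 mg per 25 g body weight, 4 times from week 4 on, in corn oil. The fl allele, a target of the recombinase, was present in the controls too. The mutants differed by a null allele in place of a wild-type one, which they carried before tamoxifen too, so its effects cannot be told apart from those of the induced deletion. Each of the 3 mutant and 3 control samples, named A, B and C in both groups, held the RNA of 2 pancreata and was measured on 1 single-colour Agilent array. Isolated islets hold several cell types, so fewer cells of a type and less RNA per cell cannot be told apart.

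Values below are normalized log2 signals, the log2 of a probe's background-corrected signal minus the 75th percentile of its array. A negative value lies below that percentile and does not mean absence. Levels of different genes are not compared, because probes differ in brightness. Nkx6-1 was at 4.32, 4.06 and 4.45 in mutants A, B and C, against 4.79, 4.85 and 4.64 in controls A, B and C (log2 difference -0.48, SE 0.14, limma adjusted p = 0.131). All mutant arrays lay below all control arrays for Nkx6-1, without passing the threshold of 0.05. The share of probes well above background was 63.9% to 74.4% on mutant arrays and 73.4% to 76.3% on control arrays, and mutants A and B had the highest floors, with lowest background-corrected signals of 7.98 and 6.85, against 2.31 to 3.31 on the other arrays. Slide 1 held mutants B and C with control A, and slide 2 held mutant A with controls B and C. The 7 beta, 6 alpha and 4 delta cell markers listed were each detected on at least 1 array. Set against the mean over the controls, the beta cell list averaged -0.57, -0.62 and -0.55 in mutants A, B and C, against 0.15, -0.06 and -0.09 in controls A, B and C. Within that list Slc2a2, Ucn3, G6pc2 and Mafa had lower mutant means, with log2 differences of -2.01 to -0.77, while Ins1, Ins2 and Iapp had higher ones, by 0.25 to 0.26. The alpha cell list stood at 0.31, 0.57 and 0.59 in mutants A, B and C, against 0.30, 0.02 and -0.31 in controls A, B and C, and the delta cell list at 0.42, 0.70 and 0.88 in mutants A, B and C, against 0.37, 0.16 and -0.53 in controls A, B and C.

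Among the 45 transporter names tested, 1 fell in mutant islets and none rose. That is 2.22% of the members, near the 2.53% of all genes that were called (1.41% higher and 1.12% lower in mutants). A fit that took the slide into account also called 1 member, beside 2.94% of all genes. The gene that fell was Slc38a2, and 13 of the 45 had an unadjusted limma p under 0.05, against 20.2% of all genes. At an adjusted p under 0.1, 7 members passed, with 6.65% of all genes past that mark: Slc38a2, Slc38a4 and Slc7a2 were lower, and Slc1a1, Slc1a3, Slc38a8 and Slc38a11 were higher. In 15 members the mutant arrays did not overlap the control arrays, 6 above and 9 below, where 26.3% of all genes had no overlap (12.3% above and 14% below). Differences of at least 2-fold in the measured values were seen in 5 members, 4 of them higher, beside 4.82% of all genes. The lower member was Slc36a3, below detection on all mutant arrays. With each mutant taken at no less than the lowest signal detected on its array, Slc36a3 fell only 1.55-fold. These counts include Slc1a3, tested only because all its mutant arrays were above background. They also include Slc1a2, Slc36a3 and Slc6a7, tested only because all their control arrays were. For these genes the filter favours the direction seen. The median log2 difference was -0.07 over the members and -0.03 over all genes tested. Within both slides 32 of the 45 kept the same sign, a share of 71.1%, against 62.6% of all genes.

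**Figure D1:**
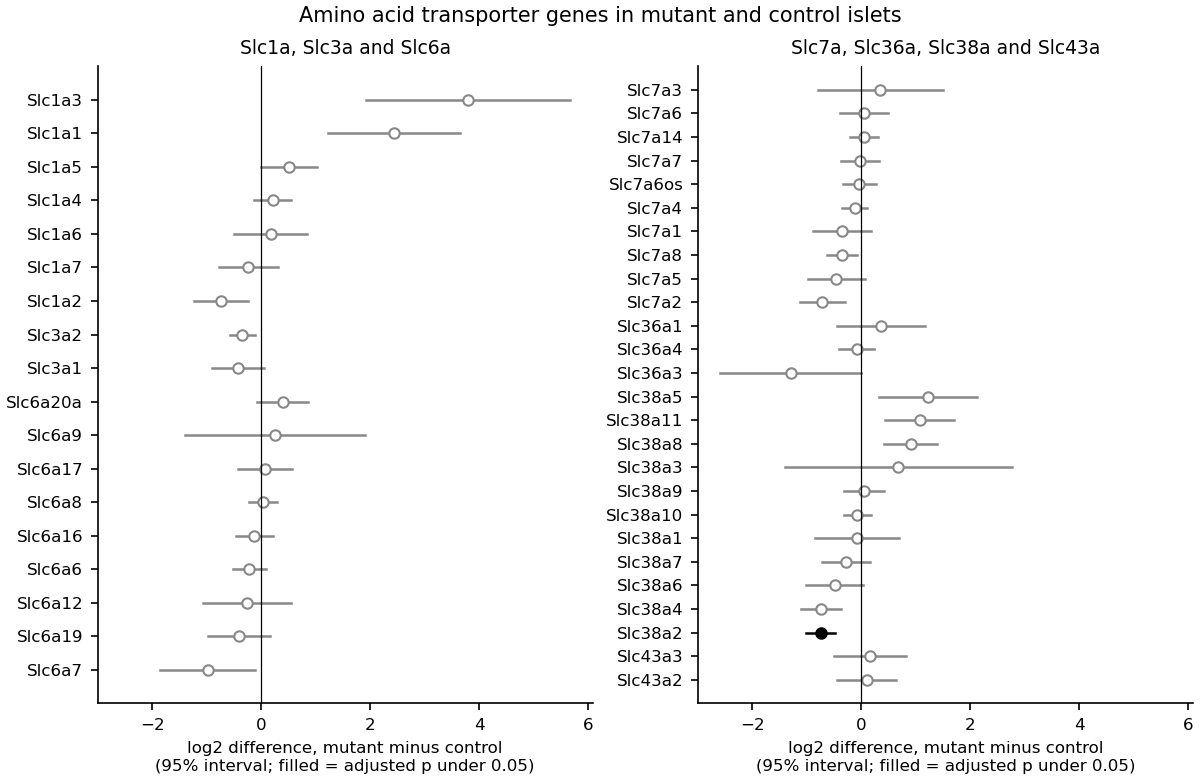
Log2 difference in signal, mutant minus control (horizontal axis), for 44 of the 45 amino acid transporter names tested, grouped by family on the vertical axis, with 95% intervals from limma. Slc38a2 alone is filled (adjusted p under 0.05), at -0.75, and Slc1a3 and Slc1a1 lie farthest to the right, at 3.79 and 2.43.

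The 3 system A carriers Slc38a1, Slc38a2 and Slc38a4 lie next to each other on chromosome 15, and their differences were not alike. Slc38a2 (SNAT2) takes up alanine, glutamine and other small neutral amino acids in most tissues. It is measured by a single 60-base probe at chr15:96518491-96518550 of mm9, minus strand. The probe is shown, 5′ to 3′, because the call rests on it.
Slc38a2 probe: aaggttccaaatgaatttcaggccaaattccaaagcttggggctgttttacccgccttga
Slc38a2 stood at 1.55, 1.57 and 1.55 in mutants A, B and C, against 2.26, 2.46 and 2.19 in controls A, B and C. The 3 mutant values lay almost on top of each other, and every one was below every control. The mean was 1.56 ± 0.01 in mutants and 2.30 ± 0.14 in controls (SD, n = 3 each), a 1.68-fold fall (log2 difference -0.75, SE 0.11, 95% interval -1.02 to -0.48, limma adjusted p = 0.036). The limma adjusted p of Slc38a2 was 0.047 when the slide was a block, and the difference was -0.70 within slide 1 and -0.78 within slide 2. Without any 1 of the 6 arrays the gene no longer passed (limma adjusted p 0.059 to 0.141), while the log2 difference kept to -0.80 to -0.67. With the mean of the acinar markers as a covariate the difference was -0.74 (limma adjusted p = 0.084). On the same 3 arrays the mean of the beta cell list was lower, through 4 of its 7 genes, and the alpha and delta lists were higher, and their part in this result was not tested.

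Slc38a4 (SNAT4), a system A carrier known best from liver and placenta and imprinted in mouse, had values very like those of Slc38a2 in direction and size. It was at 2.33, 1.96 and 2.13 in mutants A, B and C and at 2.69, 3.07 and 2.89 in controls A, B and C. Again no mutant array reached a control array. The log2 difference of -0.75 (SE 0.15) had a limma adjusted p of 0.067 (0.052 when the slide was a block), so Slc38a4 was not called. Its probe lies 306.9 kb from that of Slc38a2, at chr15:96825482-96825541 (mm9). Slc38a1 (SNAT1), the third of the group and known best from neurons, sits on the other side of Slc38a2, its probe 111.6 kb away. Slc38a1 was at -3.18, -3.83 and -3.05 in mutants A, B and C, against -2.72, -3.54 and -3.58 in controls A, B and C (log2 difference -0.08, 95% interval -0.84 to 0.69, limma adjusted p = 0.910). The groups overlapped for Slc38a1, and its difference was -0.73 within slide 1 and 0.38 within slide 2. A 2nd detected probe of Slc38a1 differed by -0.25.

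**Figure D2:**
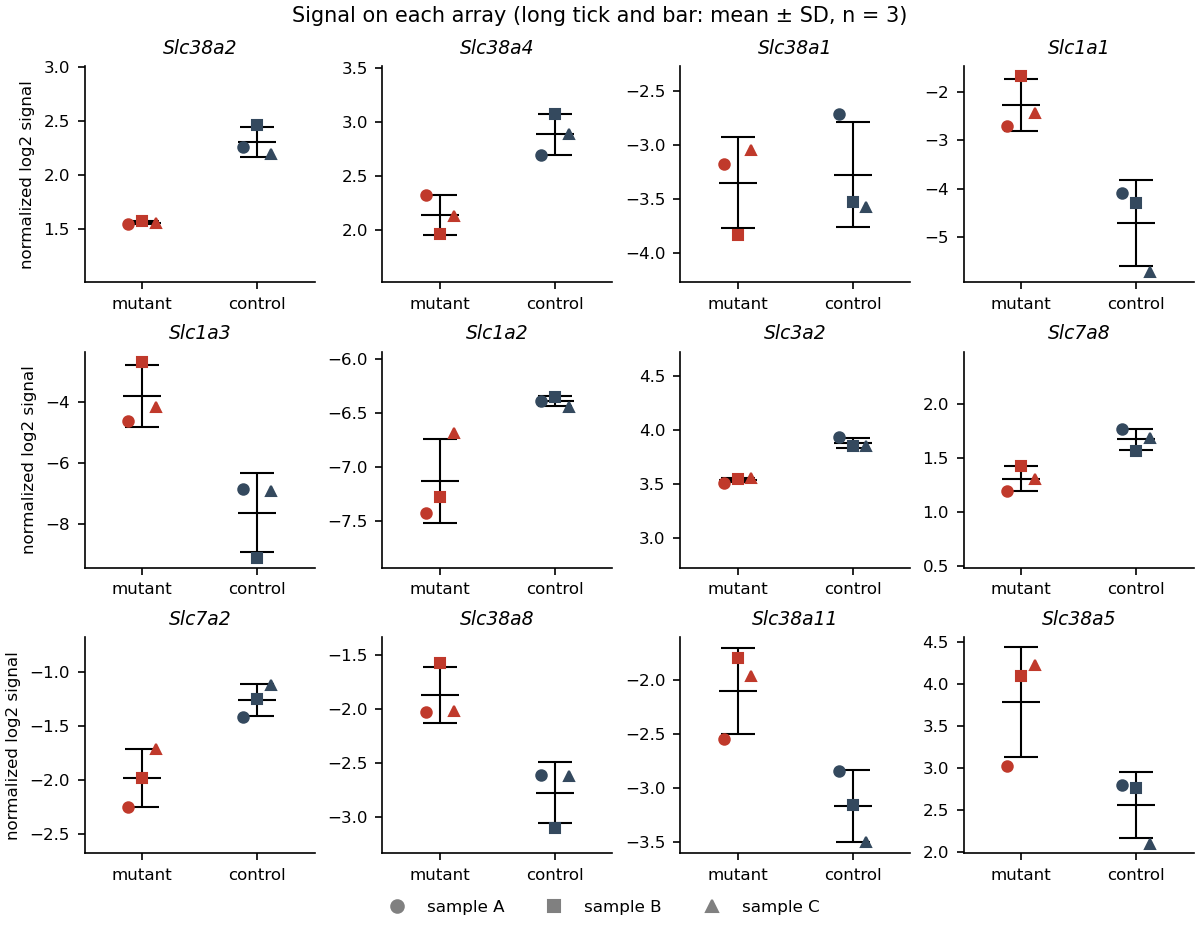
Normalized log2 signal (vertical axis, its own range in each panel) of 12 transporter genes on each array, mutants in red on the left and controls in dark blue on the right; symbols mark samples A, B and C, and the long tick and bar give mean ± SD (n = 3). Mutants lie apart from controls in every panel other than Slc38a1, for Slc38a2 at 1.55 to 1.57 against 2.19 to 2.46.

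Slc38a5 (SNAT5), a system N carrier of glutamine known from exocrine pancreas and, in mice, from alpha cells when glucagon signalling is blocked, had higher values in mutants. The signal of Slc38a5 was 3.02, 4.09 and 4.22 in mutants A, B and C, against 2.79, 2.76 and 2.10 in controls A, B and C. All mutants lay above all controls, but mutant A only just. The log2 difference of 1.23 (SE 0.37) had a limma adjusted p of 0.145, with 1.36 within slide 1 and 0.59 within slide 2. The other system N carrier, Slc38a3, known best from liver and kidney, was at -4.65, -3.24 and -1.14 in mutants A, B and C, against -4.08, -3.72 and -3.27 in controls A, B and C. Its log2 difference of 0.68 (limma adjusted p = 0.686) had opposite signs on the slides, 1.89 within slide 1 and -1.16 within slide 2. Slc38a3 is among a set of genes taken up again below, beside the acinar markers.

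Among the less studied Slc38 members, Slc38a8, known as a glutamine carrier of the eye, and Slc38a11, whose substrate is poorly known, were higher on every mutant array. Slc38a8 was at -2.03, -1.57 and -2.02 in mutants A, B and C and at -2.61, -3.10 and -2.62 in controls A, B and C (log2 difference 0.91, SE 0.20, limma adjusted p = 0.081). Slc38a11 was at -2.54, -1.79 and -1.96 in mutants A, B and C and at -2.84, -3.15 and -3.50 in controls A, B and C (log2 difference 1.07, SE 0.26, limma adjusted p = 0.095). Neither passed the threshold, and a 2nd probe of Slc38a11 differed by only 0.26. Slc38a9, the lysosomal arginine sensor that signals to mTORC1, differed by 0.04 (95% interval -0.33 to 0.41), with overlapping groups. Slc38a6, Slc38a7 and Slc38a10 lay between -0.49 and -0.07 and did not pass.

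The glutamate carriers held the 2 largest differences of all members tested, those of Slc1a3 and Slc1a1. Slc1a1 (EAAC1), a carrier of glutamate, aspartate and cysteine, was at -2.70, -1.68 and -2.44 in mutants A, B and C, against -4.10, -4.29 and -5.73 in controls A, B and C. Every mutant lay well above every control. The log2 difference was 2.43 (SE 0.49), a 5.41-fold higher signal in mutants, with 2.04 within slide 1 and 2.31 within slide 2. Its limma adjusted p was 0.067, and the wide control spread of 0.89 (SD, n = 3) sits beside it. The scanner software had marked spots of this gene as outliers on 2 arrays.

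Slc1a3 (GLAST), the glutamate carrier of astrocytes and other glia, was detected on all mutant arrays and on no control array. The gene passed the filter through its mutant arrays alone, which favours a higher mutant value. It was at -4.62, -2.69 and -4.17 in mutants A, B and C, against -6.84, -9.09 and -6.92, below detection, in controls A, B and C. The limma adjusted p was 0.067 for the measured values. Controls were also taken at their measured value or their lowest detectable level, whichever was higher. That level is the lowest signal of any probe called above background on the array. Controls A and C lay above it, although Slc1a3 was not detected there, so they entered at their measured values. On this basis the signal was 9.02-fold higher in mutants. That size depends on the background correction: the log2 difference was 3.79 as measured, 1.57 with normexp, 1.45 with normexp and quantile normalization, and 1.68 in the deposited values. With 1 array left out it was 3.05 to 4.19. The difference was 3.41 within slide 1 and 3.39 within slide 2. Schwann and glia markers overlapped between the groups: their list stood at 0.26, 0.07 and 0.17 in mutants A, B and C, against -0.14, 0.25 and -0.11 in controls A, B and C, each as a difference from the mean over the controls. Their part in the Slc1a3 signal was not tested.

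Slc1a2 (GLT-1), the main glutamate carrier of the brain, had the opposite pattern at a very low signal. It was at -7.42, -7.28 and -6.68 in mutants A, B and C, all below detection, and at -6.39, -6.34 and -6.44 in controls A, B and C, all detected. The lowest detectable levels of mutants A and B, -5.91 and -5.75, lay above every control value. A signal at the control level would thus have been below detection on mutants A and B too. Slc1a2 passed the filter through its control arrays alone, which favours a lower mutant value. The measured log2 difference of -0.74 had a limma adjusted p of 0.126. No fold is given, because the control mean did not exceed the mutant mean set by the higher of measured value and lowest detectable level. On 2 other probes Slc1a2 was not detected on any array, so its level rests on 1 dim probe. Of the remaining glutamate carriers, Slc1a6 differed by 0.18 and Slc1a7 by -0.24. The neutral exchangers of the family had higher mutant means, by 0.50 for Slc1a5 (ASCT2, a glutamine exchanger; limma adjusted p = 0.251) and by 0.21 for Slc1a4 (ASCT1; limma adjusted p = 0.444). A 2nd Slc1a5 probe gave 0.51.

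The heavy chain Slc3a2 (CD98), which carries the light chains to the membrane, was at 3.51, 3.55 and 3.55 in mutants A, B and C, against 3.94, 3.85 and 3.86 in controls A, B and C. The groups did not overlap, and the SD was 0.02 in mutants and 0.05 in controls (n = 3 each). The difference was small, however, at -0.34 (SE 0.09, limma adjusted p = 0.115), and limma draws the spread of each gene towards that of all genes. Slc3a1, the heavy chain of cystine and dibasic transport in kidney and gut, differed by -0.42 (limma adjusted p = 0.298).

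The light chains detected beside Slc3a2 had values on the same side or near 0. Slc7a8 (LAT2), an exchanger of neutral amino acids, was at 1.19, 1.42 and 1.30 in mutants A, B and C, against 1.76, 1.56 and 1.68 in controls A, B and C (log2 difference -0.36, SE 0.11, limma adjusted p = 0.154). Slc7a5 (LAT1), which brings leucine into cells in exchange for glutamine, was at -0.40, 0.02 and -0.26 in mutants A, B and C, against 0.66, 0.02 and 0.06 in controls A, B and C (log2 difference -0.46, limma adjusted p = 0.298). Mutant B and control B nearly touched for Slc7a5, and its 2nd probe gave -0.31. Slc7a6 and Slc7a7 (y+LAT2 and y+LAT1), which exchange cationic for neutral amino acids, differed by 0.05 and -0.02, with 95% intervals of -0.40 to 0.49 and -0.37 to 0.32. Slc7a6os, on the opposite strand beside Slc7a6, differed by -0.04. Slc7a11, the cystine and glutamate exchanger of the glutathione pathway, was not detected on any array, and neither were Slc7a9, Slc7a10, Slc7a12 and Slc7a13.

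Carriers of cationic amino acids had lower means for 2 of 3 genes. Slc7a2 (CAT2), a carrier of arginine, lysine and ornithine, was at -2.25, -1.98 and -1.71 in mutants A, B and C, against -1.42, -1.25 and -1.12 in controls A, B and C. Each mutant lay below each control, with a log2 difference of -0.72 (SE 0.17, limma adjusted p = 0.089), and -0.43 within slide 1 and -1.07 within slide 2. Slc7a1 (CAT1), the widespread arginine carrier, was at 1.99, 2.26 and 2.56 in mutants A, B and C, against 2.98, 2.42 and 2.47 in controls A, B and C. The groups overlapped for Slc7a1 (log2 difference -0.36, 95% interval -0.89 to 0.17, limma adjusted p = 0.409). Slc7a3 (CAT3), chosen here after its values were seen, differed by 0.34, with mutant C at -1.42 and the other 5 arrays at -3.28 to -2.61.

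In the Slc6 family none of the 10 genes tested passed in limma, and 1 had an unadjusted p under 0.05, Slc6a7. Slc6a6, the taurine carrier, was at 2.54, 2.52 and 2.26 in mutants A, B and C, against 2.63, 2.57 and 2.77 in controls A, B and C, with no overlap and a small difference (-0.22, limma adjusted p = 0.378). Slc6a8, the creatine carrier, differed by 0.03 with a 95% interval of -0.22 to 0.28. The neuronal carrier Slc6a17, a neutral amino acid carrier of synaptic vesicles, differed by 0.07. Slc6a19, the neutral amino acid carrier of gut and kidney, differed by -0.41 (limma adjusted p = 0.377). Slc6a7, a proline carrier of the brain, had the largest difference of the family, -0.98 (SE 0.36, limma adjusted p = 0.205), but it was detected on only 1 mutant array.

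Slc6a9 (GLYT1), the glycine carrier, spread more over the mutants than any other member tested except Slc38a3. It was at -0.79, 0.37 and 2.05 in mutants A, B and C, against 0.27, 0.19 and 0.41 in controls A, B and C. The mutant SD was 1.43 and the control SD 0.11 (n = 3 each), so the mean difference of 0.26 had an interval of -1.40 to 1.91 (95%, limma adjusted p = 0.855). A 2nd probe of Slc6a9 gave 0.23.

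In the Slc36 and Slc43 families no gene passed in limma, and 1 had an unadjusted p under 0.05, Slc36a3. Slc36a1 (PAT1), which moves small amino acids with protons out of lysosomes and into gut cells, was at -0.79, -0.44 and 0.49 in mutants A, B and C, against -0.76, -0.62 and -0.46 in controls A, B and C (log2 difference 0.36, limma adjusted p = 0.573). Its 2nd probe pointed the other way, at -0.41, so Slc36a1 has no settled direction. Slc36a3, a relative found mainly in testis, was read by 2 dim probes. The brighter differed by -1.30 (limma adjusted p = 0.245), and the other, detected on 1 mutant array, by -0.46. The brighter was below detection in all mutants and above it in all controls, and was tested through the controls alone. Its groups overlapped even so, mutant A at -5.96 lying above control A at -6.11. The lowest detectable level was -5.91 on mutant A and -7.09 on control A. With 1 array left out the difference of Slc36a3 lay between -1.35 and -0.33. Slc36a4 differed by -0.08. Slc43a2 (LAT4), which lets branched-chain and other large neutral amino acids out of cells, differed by 0.10 with an interval of -0.45 to 0.64, and Slc43a3, known as a purine base carrier, by 0.15 with an interval of -0.51 to 0.82.

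A total of 17 names were too dim to test. They include the 3 monoamine carriers Slc6a2, Slc6a3 and Slc6a4, among them the serotonin carrier Slc6a4. Of the 62 names 40 were above background on all 6 arrays and 8 on none. Members above background numbered 42, 41 and 48 on mutant arrays A, B and C, against 45, 47 and 48 on control arrays A, B and C. For the 8 names detected on no array the arrays set only an upper limit to the signal.

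Some transporter genes differed between the mutants in a way that set the slides against each other, as the acinar markers did. The 17 acinar genes measured (digestive enzymes and their regulators) averaged -0.74, 0.90 and 1.76 in mutants A, B and C, as differences from the mean over the controls, against -0.22, -0.08 and 0.30 in controls A, B and C. Mutant C was thus the highest and mutant A the lowest. Within slide 1 the acinar list differed by 1.55, and within slide 2 by -0.85. Differences of more than 0.2 up within slide 1 and more than 0.2 down within slide 2 were found in 5 of the 45 transporter genes, Slc38a3, Slc6a9, Slc7a3, Slc36a1 and Slc1a7, and the reverse in 2, Slc6a17 and Slc38a1. The share of all genes with these patterns was not counted. Members were not opposed more often than other genes, as 71.1% of them kept the same sign within both slides, against 62.6% of all genes. All 7 were picked by these patterns, and the 2 reversed genes ran against the acinar list. The likeness of the other 5 to that list is therefore a description and supports nothing. Slc7a3 and Slc1a7 were chosen after their values were seen. Within slide 1 Slc6a9 differed by 0.94 and Slc36a1 by 0.78, and within slide 2 by -1.09 and -0.25.

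Genes whose mutant arrays do not overlap the control arrays keep their sign within both slides by construction. The genes named next are of that kind, so their signs beside the acinar list are a description and support nothing. Slc38a2, Slc38a4, Slc3a2 and Slc7a8 were lower on mutant A, with the lowest acinar signal, as well as on mutant C, with the highest. Slc1a1, Slc1a3, Slc38a11 and Slc38a5 were higher on all 3 mutants. Each of these 4 was lowest of the mutants on array A, the one with the lowest acinar signal, where Slc38a5 lay 0.47 above the control mean. The part of the acinar signal in these values was not tested beyond the covariate fit. With the acinar mean as a covariate no transporter gene passed, and 137 of all genes did in place of 576.

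**Figure D3:**
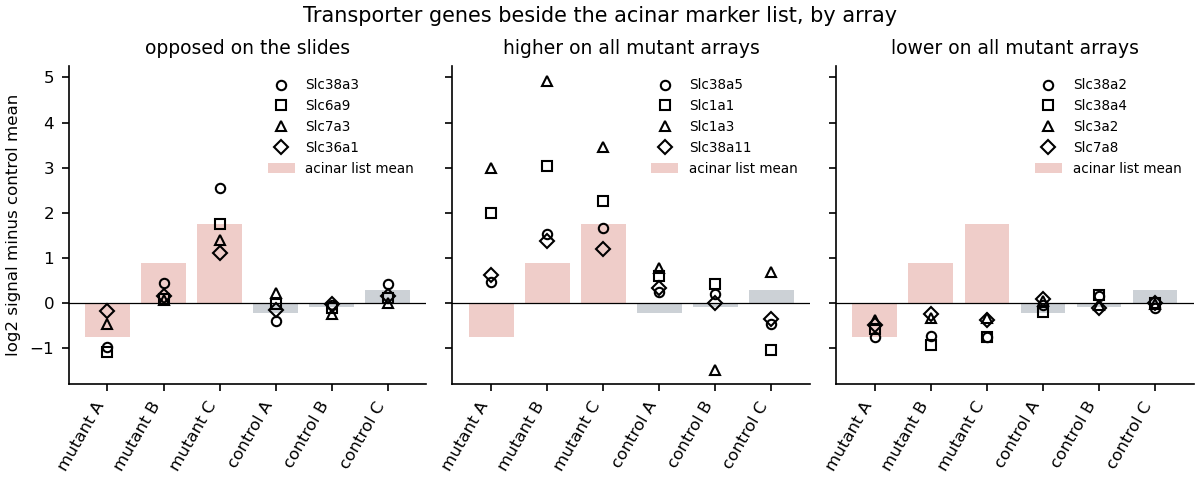
Log2 signal minus the control mean (vertical axis) on each array (horizontal axis, mutants first) for transporter genes opposed between the slides (left), higher on all mutants (middle) and lower on all mutants (right); shaded columns give the mean of the acinar marker list. The genes of the left panel were picked for opposed differences, and the columns there reach 1.76 in mutant C and -0.74 in mutant A. Those of the other panels have groups that do not overlap, so the mutant points of the right panel lie below 0 by that choice.

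Lists of genes that work with the transporters are counted next, each beside 2.53% called of all genes. Of 16 other amino acid carriers tested, in mitochondria, lysosomes and synaptic vesicles, none was called (limma, 7 with an unadjusted p under 0.05), with a median of -0.01. Slc25a18, a mitochondrial glutamate carrier, had the largest difference of that list, -0.81 (limma adjusted p = 0.129). None of 4 partner proteins passed either (limma, 2 with an unadjusted p under 0.05). Among them Tmem27 (collectrin), which brings Slc6 carriers to the membrane in kidney and is a known beta cell protein, was at 6.63 to 7.39 in mutants and at 6.00 to 6.48 in controls. All mutants lay above all controls (log2 difference 0.88, SE 0.24, limma adjusted p = 0.116).

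Genes of the response to amino acid shortage were mostly at lower values. Of 24 tested, 2 fell and none rose, and 4 passed in limma when the slide was a block. A negative difference was seen in 21 of the 24, beside 12155 of all 22775 genes tested. The median was -0.34, against -0.03 over all genes. Atf5, a transcription factor of the response, was at 3.47, 3.69 and 4.05 in mutants A, B and C, against 5.68, 5.46 and 5.51 in controls A, B and C, a 3.52-fold fall (log2 difference -1.82, SE 0.17, limma adjusted p = 0.015). Ddit3 (CHOP), a partner in the stress response, differed by -0.64 (SE 0.11, limma adjusted p = 0.048, or 0.062 when the slide was a block). The factor at the head of the response, Atf4, is known to act on Slc3a2, Slc7a5 and Slc7a11 and differed by -0.14 itself (limma adjusted p = 0.711).

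Enzymes of amino acid metabolism had 5 called genes of 36 tested, 3 higher and 2 lower, with a median of 0.17. When the slide was a block 3 of the 36 were called, and the limma adjusted p was 0.064 for Oat and 0.064 for Gatm. Gad1, which makes GABA from glutamate, was at -0.78, -1.51 and -1.90 in mutants A, B and C, against 1.16, 2.05 and 1.55 in controls A, B and C, a 7.91-fold fall (log2 difference -2.98, SE 0.35, limma adjusted p = 0.022). Glul, which makes glutamine from glutamate, was at 2.39, 2.35 and 2.43 in mutants A, B and C, against 3.17, 3.05 and 3.13 in controls A, B and C (log2 difference -0.73, SE 0.09, limma adjusted p = 0.027). Both enzymes use glutamate, the substrate of Slc1a1 and Slc1a3. Bckdhb, a subunit of the branched-chain keto acid dehydrogenase, was 3.09-fold higher (log2 difference 1.63, SE 0.21, limma adjusted p = 0.027), and Oat, ornithine aminotransferase, 2.07-fold higher (log2 difference 1.05, SE 0.17, limma adjusted p = 0.043). Gatm, the first enzyme of creatine synthesis, was the other gene called (log2 difference 1.92, limma adjusted p = 0.047).

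In the mTORC1 amino acid sensing list 1 of 18 genes fell and none rose, with a median of -0.20. Flcn (folliculin), which acts on the Rag GTPases at the lysosome, was at 1.42 to 1.72 in mutants and at 2.41 to 2.63 in controls (log2 difference -0.97, SE 0.13, limma adjusted p = 0.027). Its partner Fnip1 was at -0.60 (limma adjusted p = 0.058) and Rragd at -0.59 (limma adjusted p = 0.087). Without mutant B, control B or control C, none of the 7 related genes Atf5, Ddit3, Gad1, Glul, Bckdhb, Oat and Flcn passed in limma. Over all 6 fits with 1 array left out, Ddit3, Glul and Oat passed in 0. Bckdhb and Flcn passed in 1 each, Gad1 in 2 and Atf5 in 3. These lists of related genes are described by their counts and were not tested as sets.

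**Figure D4:**
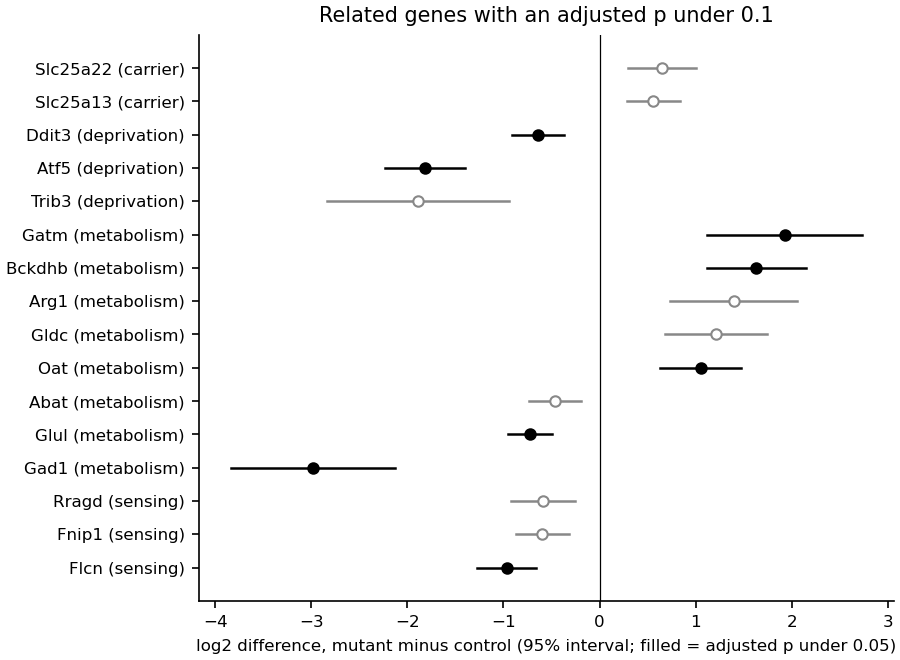
Log2 difference in signal, mutant minus control (horizontal axis), with 95% limma intervals for the related genes with an adjusted p under 0.1 (vertical axis, list in brackets); filled points have an adjusted p under 0.05. Gad1 (-2.98) and Atf5 (-1.82) lie lowest among the filled points, and Gatm (1.92) and Bckdhb (1.63) highest.

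The promoter of Slc38a2 was read because Nkx6-1 is a homeodomain protein and the gene was the only member called. RefSeq promoters (GRCm38.p6) ran from 250 bases before to 50 after the start of a gene, and 44 of the 62 names had one. TAATTA, the core of many homeodomain sites, reads the same on both strands. It occurred in 5 of these 44 genes, against 6.12% of 27025 genes with a promoter, and among members with an adjusted p under 0.1 it was in Slc38a2 and Slc1a3. In Slc38a2 it starts 193 bases before the start of the gene, in capitals in the 250 bases at chr15:96699729-96699978 (GRCm38.p6, minus strand).
Slc38a2 promoter: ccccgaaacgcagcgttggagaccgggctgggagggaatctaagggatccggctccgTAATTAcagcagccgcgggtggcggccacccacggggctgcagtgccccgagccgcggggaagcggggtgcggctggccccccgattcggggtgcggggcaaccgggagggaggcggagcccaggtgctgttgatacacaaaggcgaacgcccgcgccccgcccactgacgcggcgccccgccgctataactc
TGATGNAAN, searched on both strands as the core of the amino acid response element, was in 4.496% of all genes and in 3 of the 44. These were Slc1a4 and Slc7a7, which were not called, and Slc7a11, which was too dim to test. These matches describe letters in the windows and are not binding sites. Sequence outside the windows, such as introns, was not searched, so a gene without a match may hold the element elsewhere.

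**Figure D5:**
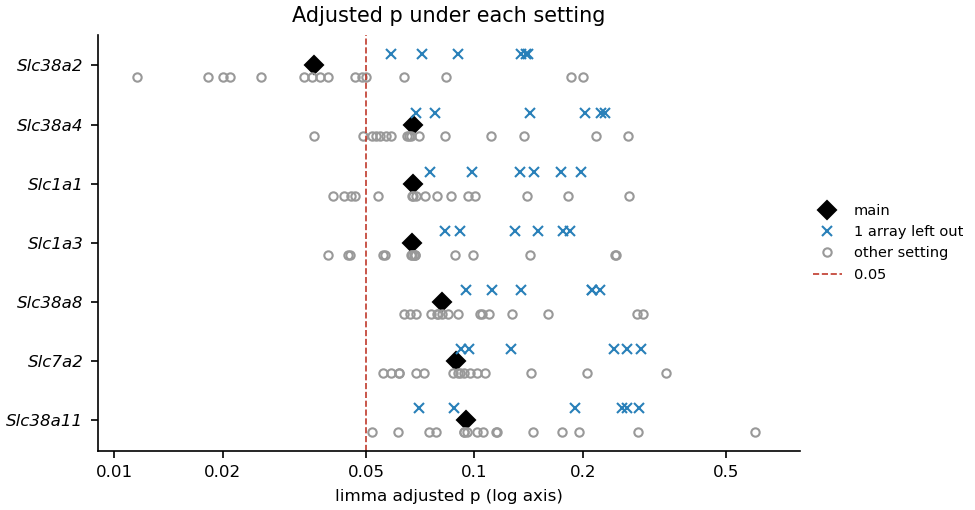
Adjusted p from limma (horizontal log axis) of the 7 members with an adjusted p under 0.1 under each setting of the processing: black diamonds give the reported value, crosses a fit with 1 array left out, and open circles another setting; the dashed line is 0.05. For Slc38a2 the diamond is at 0.036 and all 6 crosses lie right of the line, from 0.059 to 0.141, while all diamonds of the other genes lie right of it, from 0.067 to 0.095.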

How the data were processed

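Islet RNA (150 ng per sample, labelled with Cy3) was measured on 6 arrays. Per the file headers, the deposited spot intensities come from Agilent Feature Extraction 10.7.3.1, which subtracted background and spatial trends within an array and did not scale between arrays. The same deposited files hold flags (other values) for signal well above background and for outlying spots. A further deposited table of intensities, equalized by the authors in a way not given in the sources used here, served as an alternative.

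After averaging the spots of a probe as log2, the 75th percentile of the array was taken off. Probes were tested if they had been called well above background throughout 1 group or more. The brightest tested probe stood for a gene name. The comparison used limma 3.58.1 under R 4.3.3 (with version 1.17.8 of data.table; two-sided, Benjamini-Hochberg over 22775 genes, threshold 0.05), and the fit was tested on simulated data. Folds compare geometric means. Where a gene was below background throughout a group, its fold used the higher of measured value and lowest detectable signal on each such array. Arrays have no read depth; precision rests on 3 arrays per group.

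Probe positions are those of the files (mm9). Of 62 names, 61 had an accession found in a RefSeq list of genes (GRCm38.p6), none under another symbol. No label ties samples of the same letter to a shared litter. Their deviations from the group means correlated at -0.23, -0.19 and -0.03 across genes. Samples of the same letter lay on different slides, and mutant and control arrays sharing a slide correlated at 0.08 to 0.23. The letter values therefore cannot show whether letters are pairs, and letters served only as an alternative block. Alternatives varied the background correction, scaling, probe filter, choice of probe, variance model, block, threshold and arrays.

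1 tested member, which was not called, is counted but not reported here by name. The members, the related and marker lists and the settings were chosen with earlier results of these data known. The text names members called, those with an adjusted p of 0.05 to 0.1, the 2 with the largest difference in each family and a set of well-known carriers, and of each related list up to 4 called genes with the smallest p or else the 1 with the largest difference. Genes outside this rule were chosen after their values were seen: Slc1a6, Slc1a7, Slc7a3, Slc38a6, Slc38a7, Slc38a10, Slc7a6os, Slc6a2, Slc6a3, Slc7a9, Slc7a10, Slc7a12, Slc7a13, Atf4, Gatm, Fnip1 and Rragd.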

Additional observations from a re-analysis of the deposited data

Results flagged for a closer look

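Among the transporter genes too dim to be tested, 3 were well above background on 1 mutant array and on no control array. Slc6a2, the noradrenaline carrier, was detected on mutant A alone, at a normalized log2 signal of -5.44. Slc6a14, a broad carrier of neutral and cationic amino acids, was detected on mutant C alone, at -6.65. Slc43a1 (LAT3), an exporter of neutral amino acids, was detected on mutant C alone, at -6.74. These are single arrays near the detection limit, and no difference between the groups was tested for these genes.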

How the results depend on the processing

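Of the 942 values recomputed for 43 genes, 811 kept their direction and side of the threshold. Members called numbered 4 with normexp background correction (Slc1a1, Slc1a3, Slc38a2 and Slc38a4), 4 when the variance followed a trend with robust estimation, 3 with the deposited processed values, 2 with normexp and quantile normalization, and 7 at an adjusted p under 0.1. They numbered 0 without a filter on dim probes, with a replicate block on the letter, without mutant arrays A and B, and with the acinar mean as a covariate, and 0 to 1 with 1 array left out. Of all genes, 0 were called in limma with the replicate block (3163 had an unadjusted p under 0.05), 1514 at an adjusted p under 0.1, 150 without mutant arrays A and B, 137 with the acinar covariate, and 13 to 396 with 1 array left out. Slc38a2 had a limma adjusted p of 0.201 with the replicate block, 0.064 without the filter and 0.186 without mutant arrays A and B. These last 2 arrays, the acinar covariate and the slide block joined with quantile normalization were settings chosen after seeing the data.

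In 12 genes that were not called, the sign of the log2 difference turned. With normexp it was 0.0264 for Slc1a2, 0.0166 for Slc38a1 and -0.0519 for Slc6a8. With normexp and quantile normalization Slc6a8 was at -0.0599, and the deposited values put it at -0.0692 and Slc7a7 at 0.0281. The mean and the lowest probe gave Slc36a1 -0.0230 and -0.41. The slide block, alone and joined with quantile normalization, put Slc43a2 at -0.0387 and -0.0469, Slc43a3 at -0.0540 and -0.0662, Slc6a9 at -0.0733 and -0.10, and Slc7a6 at -0.0531 and -0.0566. Without mutant arrays A and B, Slc38a1 was at 0.23, Slc43a2 at -0.0735, Slc6a8 at -0.0953 and Slc7a7 at 0.0256. The acinar covariate gave Slc38a3 -0.18, Slc6a9 -0.42 and Slc7a6 -0.00786. With 1 array left out the ranges were -0.00540 to 0.64 for Slc36a1, -0.228 to 0.205 for Slc38a1, -0.260 to 1.497 for Slc38a3, -0.0570 to 0.163 for Slc38a9, -0.0503 to 0.303 for Slc43a2, -0.0226 to 0.373 for Slc43a3, -0.0581 to 0.249 for Slc6a17, -0.00150 to 0.0932 for Slc6a8, -0.497 to 0.924 for Slc6a9, -0.0754 to 0.1998 for Slc7a6 and -0.134 to 0.101 for Slc7a7. The cause was not tested.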
